A study of Mus musculus with 6 samples.

Results

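Nectins, nectin-like molecules, Epcam and Ceacam1 are surface proteins by which epithelial cells hold on to each other without a classical cadherin, and their transcripts were read here in epithelial cells of the mouse small intestine. The members were 8 genes, namely Nectin1, Nectin2, Nectin3, Nectin4, Pvr, Epcam, Ceacam1 and Cadm1, chosen by name from the 18194 genes that have a probe set of their own in the platform annotation. Every probe set that the annotation gives to a member alone was taken, which gave 34 of the 45101 on the array. In 3 N-cadherin replacement samples, with the genotype Ecadflox/Ncad;Vil-Cre, the epithelium is described as having N-cadherin (Cdh2) in place of E-cadherin (Cdh1); Vil-Cre is a recombinase driven by the villin promoter and acts in gut epithelium. The other 3 samples came from littermates that kept E-cadherin, whose genotype is labelled only as Control, so which of these alleles they carried is not given. All mice were C57BL/6 and 14 days old, and the cells were shaken off the tissue with EDTA, a chelator that withdraws the calcium on which cadherins depend. Nothing in the labels ties each sample to an animal of its own, so the p-values reflect only how much these samples varied, which may be technical.

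Nectins are immunoglobulin-like molecules that bind each other across the gap between neighbouring cells, independently of calcium, and are anchored to actin by the cytoplasmic protein afadin. They start contacts to which cadherins are then recruited. Pvr (CD155, nectin-like 5) and Cadm1 (nectin-like 2) belong to the related nectin-like group. Epcam is a homophilic adhesion protein of simple epithelia that in the intestine stabilizes claudins, and its loss causes a congenital diarrhoea. Ceacam1 is a member of the carcinoembryonic antigen family with inhibitory signalling motifs in its long cytoplasmic tail, present on the apical surface of enterocytes and also on lymphocytes, myeloid cells and endothelium.

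Intensities are given per array as deposited; for tests they were floored at 16 and put on the log2 scale. The log2 ratios of control 2 to control 3 had an SD of 0.115 over 5131 bright probe sets, within the 0.0812 to 0.134 that 18 hybridization control probe sets gave over all array pairs, though above their 0.0824 for that pair. They were therefore averaged and counted as 1 sample, which left n = 3 replacement and n = 2 control replicates; other pairs within a group differed by 0.346 to 0.563. By Xist and Y-linked transcripts, replacement 2, replacement 3 and control 1 were female, and replacement 1, control 2 and control 3 male. Cdh1, the deleted gene, stood at 1073, 1175 and 1357 in the replacement arrays and at 2757, 2335 and 2204 in the control arrays, a log2 difference of -1.06 (SE 0.241) with a limma adjusted p of 0.0580 over all 26664 probe sets tested, just short of the threshold of 0.05, though the groups did not overlap. Whether its probe set lies in the deleted part is not given. Both Cdh2 probe sets were under 16 on all 6 arrays, so the labels are checked by Cdh1 alone, in part.

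Of the 34 member probe sets 27 reached 16 on at least 3 of the 6 arrays and were tested. At a limma adjusted p under 0.05, 5 were higher in the replacement samples, all of them Ceacam1, and none was lower. At an unadjusted p under 0.05 there were 12, of which 7 were Ceacam1, again none lower, where 19.5% of all probe sets tested reached it. Of all probe sets tested 4.04% were called, with 2.21% higher and 1.83% lower. Among the members, 14 probe sets had every replacement array above every control array, and 7 of these were Ceacam1. In 1 member probe set every replacement array was below. The shares of all probe sets tested that showed this were 16.9% and 15.2%. The median difference of the 27 was 0.47 on the log2 scale, and that of all probe sets tested was -0.02. By gene the median ran from -0.22 for Nectin1 to 1.63 for Ceacam1, so the 0.47 does not describe the members alike. In a bulk sample a change in the number of cells of a type cannot be told apart from a change of RNA per cell.

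**Figure D1:**
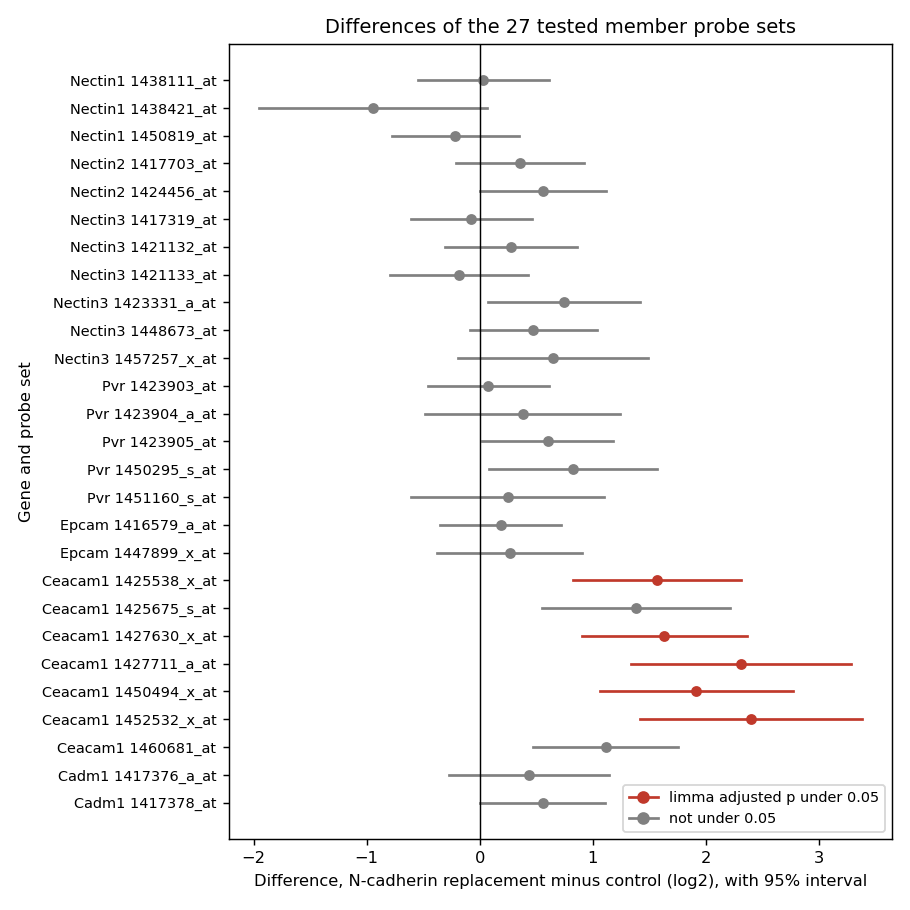
Log2 difference (replacement minus control) of each of the 27 tested member probe sets, with its 95% interval from the limma fit; red marks a limma adjusted p under 0.05. The 5 called probe sets are all Ceacam1, and all 7 tested Ceacam1 probe sets lie at 1.11 or more.

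Ceacam1 transcript stood higher in the replacement arrays than in the control arrays on all 8 probe sets, of which 5 passed the threshold. On the brightest of its 8 probe sets, 1460681_at, whose name carries no mark of cross-hybridization, the intensity was 1856, 1851 and 2419 in the replacement arrays against 772, 1116.5 and 1157.5 in the control arrays. All 3 replacement arrays thus stood above all 3 control arrays, 2.16-fold on average (log2 difference 1.11, SE 0.275, n = 3 and 2), but the adjusted p of 0.0756 missed the threshold on this probe set.

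Probe set 1427711_a_at, which reads transcripts of the same gene, had 149, 304 and 402.5 in the replacement arrays against 49.1, 47.7 and 68.4 in the control arrays. The groups lay far apart, with a 4.97-fold higher mean (log2 difference 2.31, SE 0.416, adjusted p = 0.0292). The largest difference belonged to 1452532_x_at, at 303, 696 and 743 in the replacement arrays against 86.3, 112 and 131 in the control arrays (log2 difference 2.40, SE 0.421, adjusted p = 0.0274).

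The suffix _x_at or _s_at marks probe sets that may also bind related transcripts, which in this family includes the neighbouring paralog Ceacam2. Of the called Ceacam1 probe sets only 1427711_a_at is free of it. Among the marked ones, 1450494_x_at had 929, 1511 and 1741 in the replacement arrays against 271, 490 and 455.5 in the control arrays (3.77-fold, adjusted p = 0.0347). For 1427630_x_at the values were 874.5, 1365 and 1519 in the replacement arrays against 340.1, 391 and 531 in the control arrays (3.10-fold, adjusted p = 0.0347). On 1425538_x_at the intensity was 1154, 1701 and 1901 in the replacement arrays against 420.1, 665 and 636 in the control arrays (2.97-fold, adjusted p = 0.0421). The last of the marked probe sets, 1425675_s_at, gave 1156, 1712 and 2096 in the replacement arrays against 467, 833 and 803 in the control arrays (2.60-fold, adjusted p = 0.0848), which did not pass. In each of these the lowest replacement array was above the highest control array.

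Probe set 1427712_at was under 16 in all control arrays, at 2.4, 2.0 and 5.5, and reached 21.8 and 33.9 in replacement 2 and replacement 3 but 10.1 in replacement 1, so it was not tested. As deposited, it too had every replacement array above every control array, as did all 8 Ceacam1 probe sets. Replacement 3 was the highest replacement array in 8 of them and replacement 1 the lowest in 7. Among the controls, control 1 was lowest in 6.

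**Figure D2:**
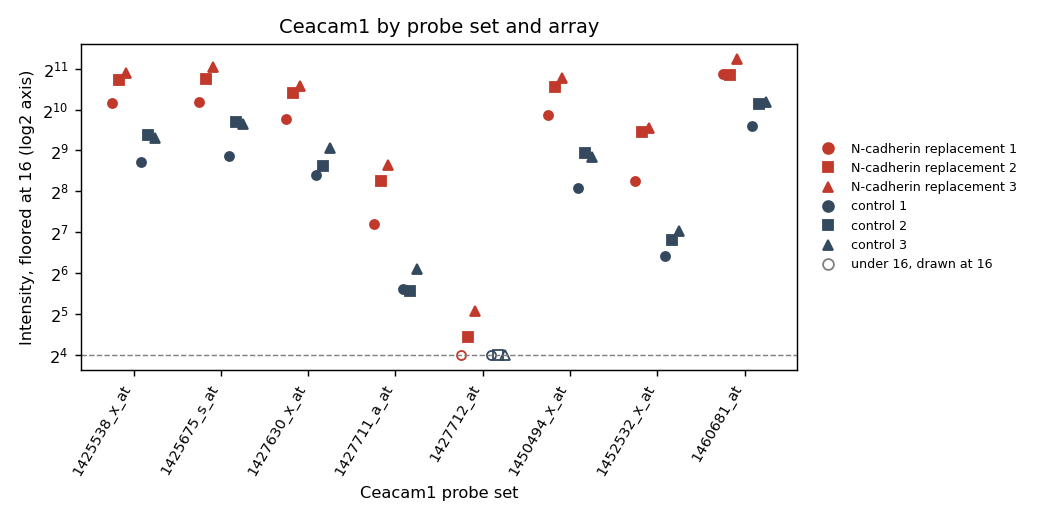
Intensity of the 8 Ceacam1 probe sets on each array (log2 axis, floored at 16 at the dashed line); red points are the 3 replacement arrays, dark points the 3 control arrays, open points lie under 16. On every probe set above the floor in both groups the red points lie above the dark ones.

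Within females (replacement 2 and replacement 3 against control 1) the log2 differences of the 7 tested Ceacam1 probe sets were 1.45 to 3.06, and within males (replacement 1 against control 2 and control 3) they were 0.50 to 1.38. Control 1, the only female control, also stood apart in stromal markers, with Col3a1 at 504 against 44.7 and 49.5 in control 2 and control 3; the part of this in the female values was not tested. Both sexes had the same direction; with 1 control replicate per sex, the difference between the sexes was not tested. With sex as a covariate 2 Ceacam1 probe sets remained under the threshold, 1427711_a_at (2.21, adjusted p = 0.0417) and 1452532_x_at (2.32, adjusted p = 0.0460).

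The Ceacam1 calls depended on the replicates. With any one of the replicates left out, the log2 differences of the 7 probe sets stayed between 0.83 and 2.81. No Ceacam1 probe set passed without replacement 2 (lowest adjusted p = 0.135), without replacement 3 (0.125), without control 1 (0.315) or without control 2 and control 3 together (0.215), while 5 passed without replacement 1. In the last 2 control settings no probe set of the whole table was called. With all 6 arrays as separate replicates, all 7 passed.

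**Figure D3:**
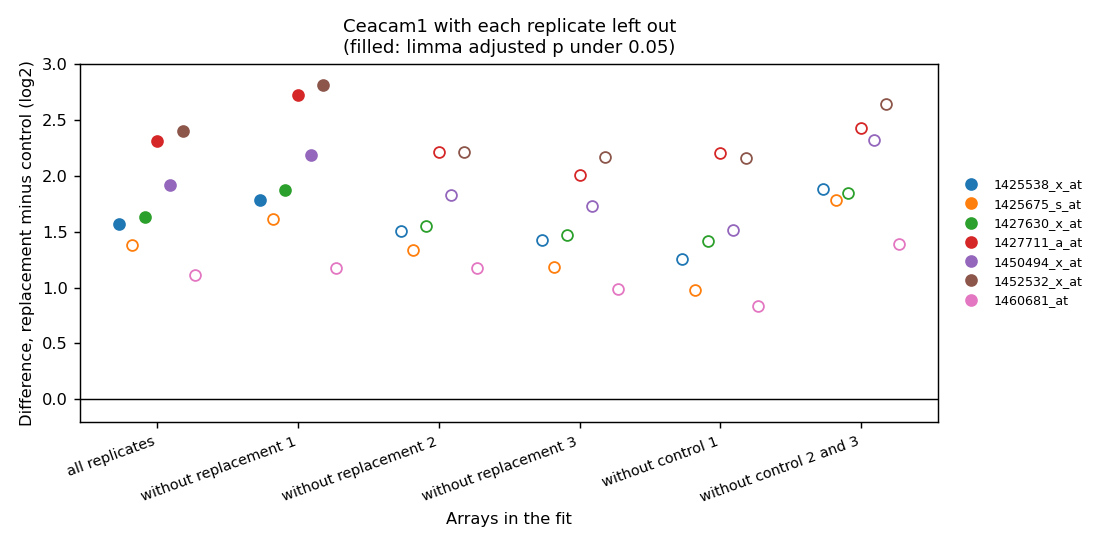
Log2 difference (replacement minus control) of the 7 tested Ceacam1 probe sets with all replicates and with each replicate left out; filled points have a limma adjusted p under 0.05. Every point lies at 0.83 or above, and filled points occur only with all replicates and without replacement 1.

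The promoters of the members whose data bear on adhesion in this epithelium are shown to set the one gene that was called, Ceacam1, beside 3 that were not: Nectin2 and Nectin3, with several differences above 0, and Epcam. The sequences are RefSeq windows on GRCm38.p6 from 250 bases before to 50 after the gene's start, and 5 of the 8 members have one. Ceacam1 is chr7:25477576-25477875 on the minus strand, Nectin2 chr7:19749524-19749823 on the minus strand, Nectin3 chr16:46496918-46497217 on the minus strand and Epcam chr17:87635729-87636028 on the plus strand. Capitals mark matches, on either strand, to any of 6 short motifs: the E-box CACGTG, the Snail box CAGGTG, the GC box GGGCGG, the AP-1 site TGANTCA, the TEAD site CATTCC and the TATA box TATAAA. No 2 matches overlap.
Ceacam1: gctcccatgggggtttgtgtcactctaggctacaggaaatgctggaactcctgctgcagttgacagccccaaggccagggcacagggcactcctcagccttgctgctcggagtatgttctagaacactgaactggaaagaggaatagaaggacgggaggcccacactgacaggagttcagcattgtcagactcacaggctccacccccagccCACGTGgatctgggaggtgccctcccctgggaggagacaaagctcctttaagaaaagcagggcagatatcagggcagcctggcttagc
Nectin2: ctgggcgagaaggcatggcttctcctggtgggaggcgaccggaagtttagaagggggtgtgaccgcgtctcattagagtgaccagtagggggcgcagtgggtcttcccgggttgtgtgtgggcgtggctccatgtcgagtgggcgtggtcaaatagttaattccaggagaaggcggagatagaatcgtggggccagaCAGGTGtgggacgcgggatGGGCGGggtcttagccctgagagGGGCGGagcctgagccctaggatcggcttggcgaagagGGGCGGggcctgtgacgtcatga
Nectin3: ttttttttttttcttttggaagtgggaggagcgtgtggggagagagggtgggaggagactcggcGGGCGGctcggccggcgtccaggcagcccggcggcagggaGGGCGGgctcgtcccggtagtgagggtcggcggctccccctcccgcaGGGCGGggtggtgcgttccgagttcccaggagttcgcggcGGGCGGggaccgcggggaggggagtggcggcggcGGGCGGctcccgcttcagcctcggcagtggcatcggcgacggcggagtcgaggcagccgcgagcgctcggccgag
Epcam: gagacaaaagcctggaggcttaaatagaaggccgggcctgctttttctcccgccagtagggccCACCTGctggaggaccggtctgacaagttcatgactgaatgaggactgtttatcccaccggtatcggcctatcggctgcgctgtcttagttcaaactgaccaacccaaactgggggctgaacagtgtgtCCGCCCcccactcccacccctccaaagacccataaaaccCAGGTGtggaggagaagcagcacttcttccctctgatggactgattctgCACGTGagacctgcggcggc

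The Ceacam1 window holds 1 match, an E-box whose first base lies at -38 from the start. Such a match occurs in 7.15% of 32817 promoter windows, and Epcam, which was not called, has one too. GC boxes occur 3 times in Nectin2, 5 times in Nectin3 and once in Epcam, against 35.6% of all windows with at least 1. Snail boxes occur once in Nectin2 and 2 times in Epcam (20.2% of windows hold one). None of the 4 windows has the AP-1 (7.81%), TEAD (14.7%) or TATA (13.6%) letters. These are matches of letters and no measure of binding.

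Among the relatives of Ceacam1 and its signalling partners, 5 of 9 listed genes were tested and none passed. At an unadjusted p under 0.05, 1 was higher and 0 lower, and the median log2 difference was 0.11. For all probe sets tested, 4.04% passed, 19.5% reached an unadjusted p under 0.05 in either direction and the median was -0.02. Ceacam2, the paralog next to Ceacam1 on chromosome 7, had 74.2, 73.3 and 90.6 in the replacement arrays against 33.6, 52.6 and 51.3 in the control arrays (log2 difference 0.92, SE 0.276, adjusted p = 0.123). Both probe sets that the annotation assigns to Ceacam2 and Ceacam1 together lie outside the members. Their log2 differences were 1.31 (SE 0.283, adjusted p = 0.0498) for 1422123_s_at and 0.95 (SE 0.311, adjusted p = 0.151) for 1460682_s_at. Ceacam18 and Ceacam20, other intestinal family members, had 0.28 (SE 0.337) and -0.26 (SE 0.267), and the phosphatase Ptpn6, which binds the tail of Ceacam1, had -0.28 (SE 0.273).

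Marker transcripts of the other cells that carry Ceacam1 were measured beside it. The summed intensity of the T and innate lymphocyte markers was 112 to 159 in the replacement arrays and 117 to 202 in the control arrays, with Cd3e, Cd3d and Cd3g under 16 on all arrays. For myeloid markers it was 1092 to 1770 in the replacement arrays and 2724 to 3078 in the control arrays, a gap that lies in Csf1r: the other 6 myeloid genes summed to 326.3 to 498.8 in the replacement arrays and 261.5 to 650.9 in the control arrays, with overlap. Endothelial markers summed to 127 to 199 in the replacement arrays and 115 to 279.5 in the control arrays, and of these 3 lists no gene rose. The 9 epithelial markers, all above the floor, summed to 22618 to 29806 in the replacement arrays and 19158 to 20633 in the control arrays, but did not move alike. Only Krt19, a keratin of simple epithelia, passed among them (log2 difference 1.27, limma adjusted p = 0.0305, and 0.0530 with sex as a covariate). Phgr1 (1.91, limma adjusted p = 0.0606) and Krt20 (1.35, limma adjusted p = 0.0726) were higher without passing. The log2 difference was 0.40 for Krt8, 0.20 for Cdx2, 0.08 for Lgals4, 0.03 for Vil1, -0.01 for Cdx1 and -0.12 for Fabp2. The part of these epithelial differences in the Ceacam1 result was not tested.

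The genes whose highest probe set ran most closely with Ceacam1 1460681_at over the 6 arrays were Tmem30b, a subunit of lipid flippases (Pearson r = 0.999), and Atp6v0a2, a subunit of the vacuolar proton pump (r = 0.994). They are given as a description, since the 6 arrays fall into 2 groups and control 2 and control 3 nearly coincide. Tmem30b moved over a narrow range, at 1929, 1946 and 2094 in the replacement arrays against 1529, 1677 and 1721 in the control arrays, and Atp6v0a2 had 265.6, 288 and 340.4 in the replacement arrays against 135, 181 and 175 in the control arrays.

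No nectin passed the test. Nectin3, which is the partner nectins 1 and 2 bind most tightly across the cell border, has 6 probe sets, and these did not move alike. On 1423331_a_at the intensity was 671.5, 1145 and 976 in the replacement arrays against 560.5, 503 and 547 in the control arrays. The replacement arrays were all higher, 1.68-fold on average (log2 difference 0.75, 95% interval 0.07 to 1.42, adjusted p = 0.215), which did not pass.

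A second bright Nectin3 probe set, 1448673_at, had 805, 1077 and 967 in the replacement arrays against 701, 626 and 693 in the control arrays, again without overlap (log2 difference 0.47, 95% interval -0.09 to 1.03, adjusted p = 0.343). In contrast 1417319_at, which the annotation ties to the same accession as 1448673_at, had 302.5, 303.5 and 256 in the replacement arrays against 285, 330.5 and 307 in the control arrays (log2 difference -0.07, 95% interval -0.61 to 0.46). There the groups overlapped in part, with replacement 3 below every control array. The 3 dim Nectin3 probe sets stayed between 16.2 and 56.9 on all arrays, with log2 differences of 0.27, -0.18 and 0.65 and overlapping groups. Nectin3 encodes several isoforms that share their outer part, and the annotation does not say which of them each probe set reads.

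Nectin2, which also serves as a ligand for receptors on lymphocytes, was read by a pair of probe sets with no overlap between the groups. On 1417703_at it had 331, 261 and 272 in the replacement arrays against 243, 204 and 206 in the control arrays (log2 difference 0.36, 95% interval -0.21 to 0.92, adjusted p = 0.491). On 1424456_at it had 304, 336 and 269.6 in the replacement arrays against 188, 216 and 231 in the control arrays (0.56, 95% interval 0.004 to 1.11, adjusted p = 0.253). Every replacement array was higher on both, by 1.28-fold and 1.47-fold on average, and neither passed.

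Nectin1, the nectin best known from skin and neurons, was near the floor and is the one member with a lower, non-overlapping probe set. On 1438421_at it had 30.5, 46.6 and 11.4 in the replacement arrays against 50.1, 61.8 and 56.9 in the control arrays (log2 difference -0.94 with replacement 3 set to the floor, 95% interval -1.95 to 0.06, adjusted p = 0.288). Its other 2 probe sets lay between 9.4 and 22.2 on all arrays, with log2 differences of 0.03 and -0.22. Nectin4, an embryonic and tumour-associated nectin, was under 16 in all control arrays on both probe sets. It reached 18.1 and 22.3 in replacement 2 and replacement 3 on 1428701_at, with 12.6 in replacement 1, and was not tested.

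The partners of nectins did not pass either: of 11 listed genes 10 were tested and none was called. At an unadjusted p under 0.05, 1 partner was higher and 0 lower, where 19.5% of all probe sets tested reached it in either direction. The median log2 difference of the partners was 0.21, against -0.02 for all probe sets tested. Vcl (vinculin, an actin linker recruited to junctions under load) had the smallest p, with 612, 683 and 783 in the replacement arrays against 453, 393.5 and 349 in the control arrays (0.75, SE 0.243, adjusted p = 0.149). Next were the scaffold Tjp1 (0.53, SE 0.234), the small GTPase Rap1b (0.46, SE 0.238) and Ctnna1, alpha-catenin (0.23, SE 0.235). Afdn, the gene of afadin itself and chosen after its values were seen, had 218, 231 and 308 in the replacement arrays against 234, 201 and 197 in the control arrays, with overlapping groups.

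Pvr, a nectin-like receptor that binds Nectin3 and is raised in proliferating and tumour cells, has 7 probe sets, of which 5 were tested and none passed. Its values on 1423905_at were 60.1, 80.1 and 63.1 in the replacement arrays against 48.1, 36.3 and 45.8 in the control arrays (log2 difference 0.60, 95% interval 0.02 to 1.18, adjusted p = 0.240). Probe set 1450295_s_at, which may be shared with other transcripts, had 61.6, 92.8 and 65.3 in the replacement arrays against 52.6, 26.9 and 37.0 in the control arrays (0.82, 95% interval 0.08 to 1.56, adjusted p = 0.215). The groups were apart on both of these. They overlapped on the other 3: 1423903_at (0.07), 1423904_a_at (0.38) and 1451160_s_at (0.25). Another pair of Pvr probe sets stayed under 16 on all control arrays, and 19.9 was the highest replacement value there.

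**Figure D4:**
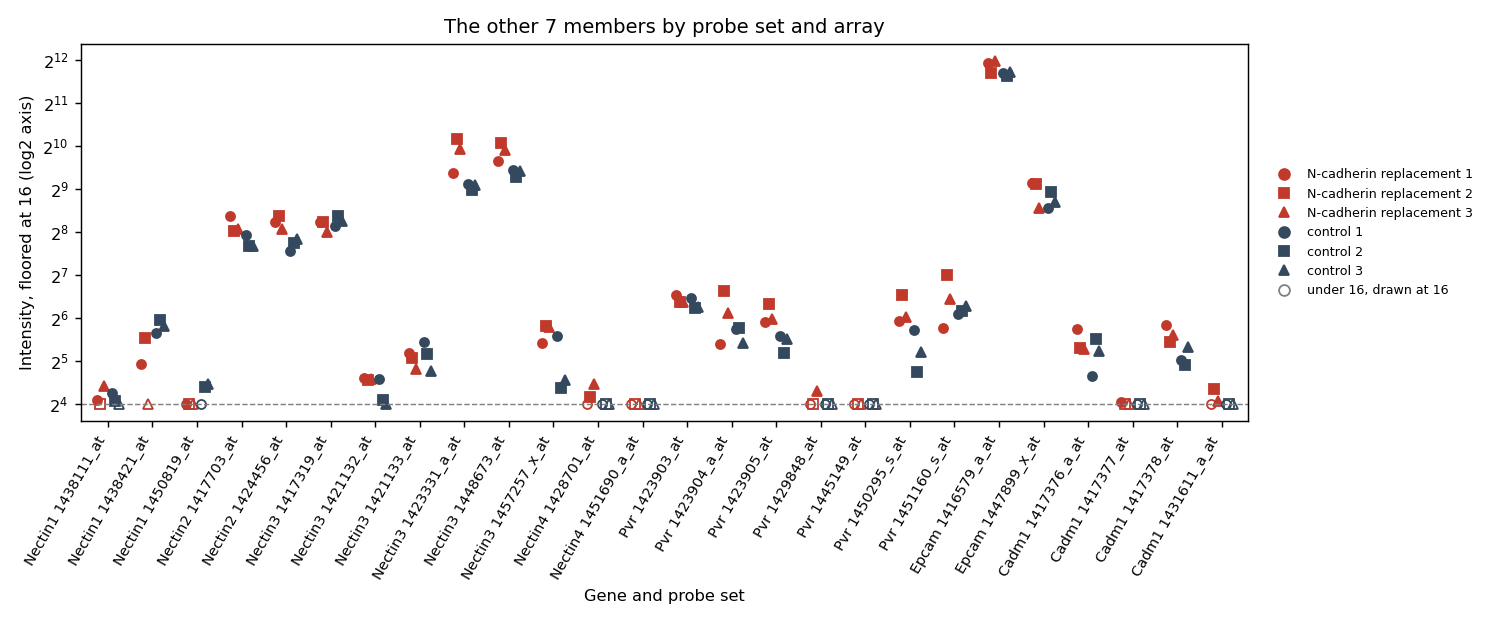
Intensity of the 26 probe sets of the 7 members other than Ceacam1 on each array (log2 axis, floored at 16 at the dashed line); red points are the 3 replacement arrays, dark points the 3 control arrays, open points lie under 16. Red points lie above the dark ones on several probe sets of Nectin2, Nectin3 and Pvr and on Cadm1 1417378_at, and below them on Nectin1 1438421_at. Red and dark points mix on both Epcam probe sets.

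Cadm1, an adhesion molecule of epithelia, neurons and mast cells, was dim and did not pass. On 1417378_at it had 57.3, 43.5 and 49.0 in the replacement arrays against 32.9, 30.0 and 40.0 in the control arrays (log2 difference 0.56, 95% interval 0.000456 to 1.11, adjusted p = 0.256), without overlap. On 1417376_a_at it had 54.2, 39.9 and 38.8 in the replacement arrays against 25.3, 45.7 and 37.5 in the control arrays (0.44, adjusted p = 0.503), with overlap. Its other probe sets were under 16 on all control arrays and at most 20.4 in the replacement arrays.

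Of the mast cell markers the protease transcript Mcpt2 passed the threshold. It stood at 75.1, 48.9 and 62.2 in the replacement arrays against 18.7, 18.2 and 16.2 in the control arrays (log2 difference 1.77, limma adjusted p = 0.0150). The control values lay near the floor, and with a floor of 32 the Mcpt2 difference was 0.93 (limma adjusted p = 0.176). The 7 mast cell markers summed to 108 to 167 in the replacement arrays and 64.1 to 84.9 in the control arrays, a gap that lies mostly in Mcpt2. The other 6 summed to 45.8 to 92.3 in the replacement arrays and 45.9 to 66.2 in the control arrays, with overlap. Of these Cpa3 had 32.6, 25.8 and 24.5 in the replacement arrays against 21.0, 21.6 and 22.0 in the control arrays (0.36, limma adjusted p = 0.491). Mcpt1 had 23.1, 24.5 and 3.9 in the replacement arrays and was under 16 in all control arrays. Fcer1a and Ms4a2, which encode the mast cell IgE receptor, were under 16 on all arrays. All 3 mast cell markers that were tested had differences above 0. The part of mast cells in the Cadm1 values was not tested. Of the relatives of Cadm1 and the lymphocyte receptors that bind Pvr and Nectin2, only Cd96 was bright enough to be tested among 7 listed genes (-0.21, SE 0.259, adjusted p = 0.727). Crtam and Cd226 were under 16 on all arrays.

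Epcam showed no difference that the fit could detect, at a high level in both groups. On 1416579_a_at it had 3955, 3338 and 4046 in the replacement arrays against 3325, 3206.5 and 3404.5 in the control arrays, with overlap. Its log2 difference of 0.18 had a 95% interval of -0.35 to 0.72 (adjusted p = 0.734), so the interval runs from 0.784-fold to 1.65-fold. On 1447899_x_at the values were 569, 560 and 381.5 in the replacement arrays against 377, 488 and 418 in the control arrays (0.26, 95% interval -0.38 to 0.90, adjusted p = 0.675).

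Some genes that act with Epcam differed between the groups. Of 12 listed relatives, partners and processing enzymes 11 were tested, 3 rose and none fell (6 and 1 at an unadjusted p under 0.05). Their median log2 difference was 0.67. Among all probe sets tested 2.21% were called higher and 19.5% reached an unadjusted p under 0.05 in either direction. This and the other lists were chosen with earlier results of these data known, so the shares are only a reference for the counts. The counts are of genes by their brightest probe set, and the shares are of probe sets. Cd9, a tetraspanin that forms membrane complexes with Epcam, had 653, 854 and 604 in the replacement arrays against 94.0, 99.3 and 105 in the control arrays, which is 7.09-fold higher (log2 difference 2.83, SE 0.252, adjusted p = 0.0039). The hyaluronan receptor Cd44 rose 8.23-fold (3.04, SE 0.356, adjusted p = 0.0077).

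Fhl2, a LIM protein that binds the cleaved tail of Epcam, rose 2.99-fold, at 318, 401.5 and 352 in the replacement arrays against 160.0, 96.3 and 81.2 in the control arrays (1.58, SE 0.307, adjusted p = 0.0364). Tspan8, another tetraspanin of intestinal epithelium, had a log2 difference of 0.92 (SE 0.234, adjusted p = 0.0829) on its brightest probe set and did not pass there, while its probe set 1420018_s_at did (1.28, adjusted p = 0.0462). The Cd9 call was lost without control 1 and without control 2 and control 3 together, and that of Cd44 also without replacement 2 and without replacement 3. The Fhl2 call was lost with any one of the replicates left out, also without replacement 1 (adjusted p = 0.0522). The claudin stabilized by Epcam, Cldn7 (chosen after its values were seen), had 3433, 2499 and 2929 in the replacement arrays against 2764, 2602 and 2886 in the control arrays, with overlap.

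In a last list, other immunoglobulin superfamily adhesion molecules of epithelia, 13 of 14 genes entered the fit. Of these 2 were called higher and none lower, and 4 were higher and 1 lower at an unadjusted p under 0.05. Of all probe sets tested 2.21% were called higher, 1.83% lower, and 19.5% reached an unadjusted p under 0.05 in either direction. Both counts of higher genes include Vsig1, which passed the filter only through its replacement arrays and is no support beside these shares. The median log2 difference was 0.18. One of the called genes, Vsig1, a junction molecule known from stomach epithelium, entered only through the replacement arrays, where it had 49.3, 56.7 and 63.4, against 13.6, 13.6 and 13.8 in the control arrays. With every control array set to the floor it has no control spread, so it is given as a description, with a geometric mean at least 3.51-fold that of the control arrays. L1cam, best known as an adhesion molecule of growing axons, had 185, 154.5 and 185 in the replacement arrays against 71.3, 67.1 and 80.9 in the control arrays (2.40-fold, log2 difference 1.26, SE 0.229, adjusted p = 0.0300). Alcam, which binds CD6 on T cells, had 177.5, 305 and 337 in the replacement arrays against 99.3, 109 and 107 in the control arrays, apart but short of the threshold (1.35, SE 0.322, adjusted p = 0.0684), and Clmp, a coxsackie and adenovirus receptor relative, had 0.79 (SE 0.287, adjusted p = 0.192). The L1cam call was lost without any one of replacement 2, replacement 3, control 1 or the pair of control 2 and control 3, and with sex as a covariate (adjusted p = 0.0531).

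**Figure D5:**
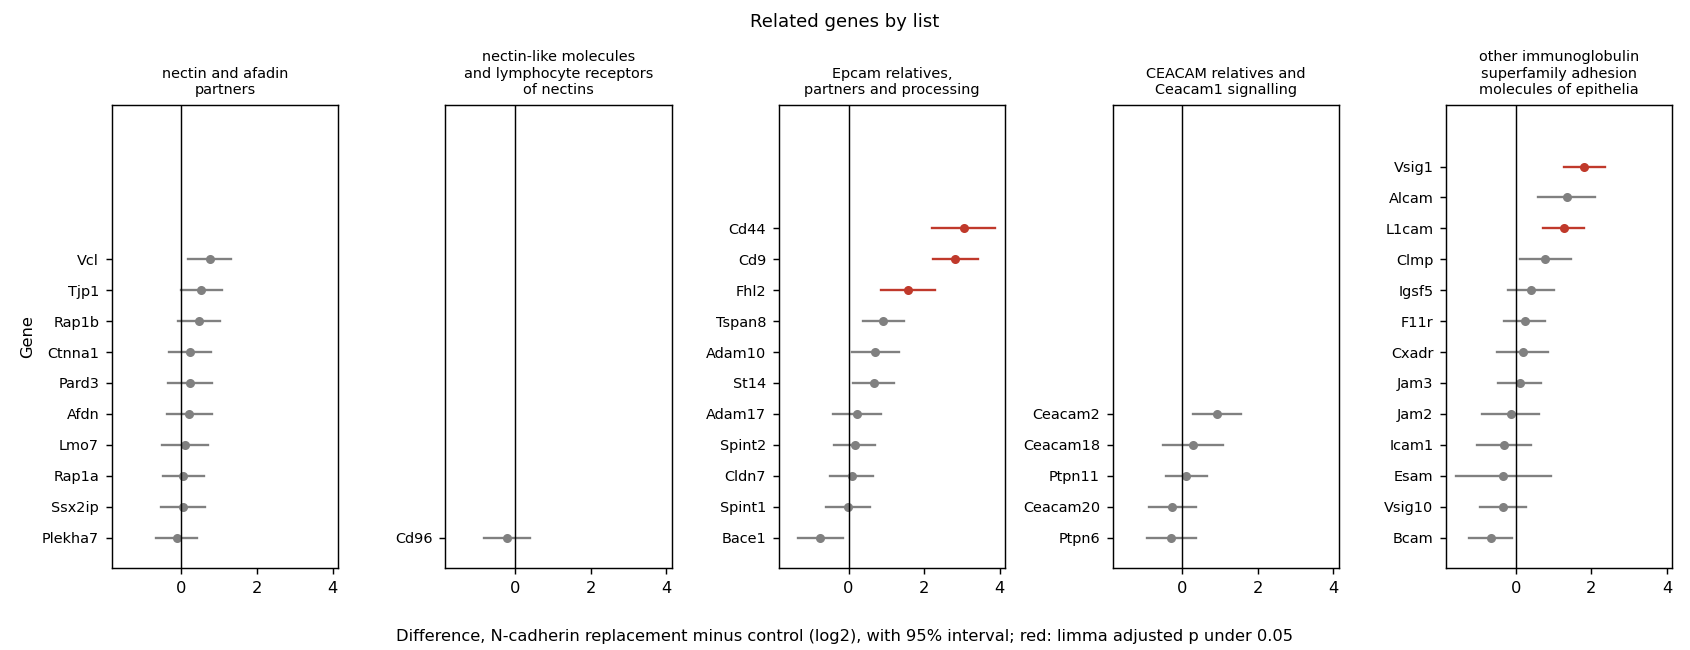
Log2 difference (replacement minus control) with its 95% interval for each tested gene of the 5 lists of related genes, 1 probe set a gene; red marks a limma adjusted p under 0.05. Cd44, Cd9, Fhl2, Vsig1 and L1cam are the called genes, all to the right of 0. The control arrays of Vsig1 are all at the floor, so its call is a description only.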

How the data were processed

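RNA of 6 samples was read on Affymetrix mouse arrays. The authors deposited linear probe set intensities, scaled, as the values show, to a mean of 100 without the lowest and highest 2% on every array. GCRMA and limma are named, per the submitters' processing notes; the sources used here do not give the summary method behind these values. The precision depends on how many replicates there are and on how much each probe set varied between them. Intensities were floored at 16 before log2, which compresses differences of dim transcripts, and probe sets with at least 3 of 6 arrays at 16 or above were kept (26664 of 45101). Genes were named from the platform annotation, with symbols updated by Entrez identifier through RefSeq GRCm38.p6 (34754 of 34958 probe sets with 1 gene matched; 932 with several were not named). The fit was limma 3.58.1 in R 4.3.3 (lmFit, eBayes) with Benjamini-Hochberg adjustment over all kept probe sets, whose steps were tested on simulated data. Of 200 changes put into those data, 9.09% of the ones of log2 1 were recovered, 92.5% of log2 2 and 100% of log2 3. In the same run 16 unchanged probe sets were called. A gene that did not pass may therefore still differ by 1 on the log2 scale. Each gene of a list stands by its brightest probe set. Named genes are all members, Cdh1, Cdh2, up to 4 genes of each list with the smallest p, the 2 genes most like a called member, and cell type markers under the floor or past the threshold. Afdn, Cldn7 and the other named markers, such as Adgre1, Sox10, Col3a1, Cpa3 and Krt20, were chosen after their values were seen. Members and lists were chosen with earlier results of these data known. In all 16 alternatives were run. Figures were drawn with matplotlib 3.10.9.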

Additional observations from a re-analysis of the deposited data

How the results depend on the processing

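The 27 tested member probe sets kept their direction and their side of the threshold in 348 of the comparisons with an alternative; 34 lost the call, all of them Ceacam1, 11 gained it, also all Ceacam1, and 8 changed sign, none of them a called probe set. The number of member probe sets called higher, 5 with the settings used, was 0 with no filter on dim probe sets and with a floor of 32, 2 with sex as a covariate, and 0 to 5 with a replicate left out; with 1 probe set a gene, 1 member gene was called, Ceacam1 (1460681_at, adjusted p = 0.0324). No alternative called a member lower. Over the whole table, 588 higher and 488 lower calls became 1624 and 1390 with all 6 arrays as separate replicates, 961 and 843 with a filter at 64, 123 and 167 with a floor of 32, and 30 and 64 with no filter. Lower calls numbered 314 with sex as a covariate. Leaving out a replicate gave 0 to 822 higher and 0 to 570 lower calls, with 0 of both when either control replicate was left out, where the spread of the single remaining control replicate was taken to equal that within the replacement group. Cdh1 passed with 1 probe set a gene, with trend and robust options and with a filter at 64 (-1.06 each), with log2(intensity + 16) (-1.05) and with all 6 arrays (-1.02), and ranged over -1.21 to -0.92 with a replicate left out. With the replicate number as a block, on all 6 arrays, 1631 higher and 1476 lower calls were made, Cdh1 had -1.02 (adjusted p = 0.0236) and 7 member probe sets were higher. Deviations of same-numbered samples from their group means correlated at 0.213, 0.0814 and 0.142. As control 2 and control 3 nearly coincide, these values cannot settle whether the numbers pair the samples. Signs turned for Nectin1 1438111_at (-0.0894 with log2(intensity + 16), and -0.0995 to 0.14 with a replicate left out), Nectin3 1417319_at (-0.15 to 0.00712), Nectin3 1421133_at (-0.43 to 0.0624), Pvr 1423903_at (-0.0410 to 0.19) and Pvr 1451160_s_at (-0.0553 to 0.56) with a replicate left out; the cause was not tested. The related genes and markers past the threshold were run under the same alternatives, a choice made after seeing the data: none changed direction, each lost its call with no filter and without either control replicate, and all but Cd9 also with a floor of 32 and without replacement 2 or replacement 3. With sex as a covariate the calls of Csf1r (adjusted p = 0.0595), Krt19 (0.0530) and L1cam (0.0531) were lost, and without replacement 1 that of Fhl2 (0.0522). The floor limits what can be said of Nectin1, Nectin4, Cadm1 and the dim probe sets of Pvr.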

Other observations

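Among the markers of other cell types 2 further genes passed. Csf1r, the receptor of macrophage colony-stimulating factor, fell on all 3 of its probe sets. Its brightest, 1419872_at, had 1271, 777 and 738 in the replacement arrays against 2427, 2442.5 and 2504 in the control arrays (log2 difference -1.44, adjusted p = 0.0444, and 0.0595 with sex as a covariate). The macrophage marker Adgre1 had 49.5, 35.3 and 46.0 in the replacement arrays against 57.0, 36.7 and 42.7 in the control arrays (-0.14, adjusted p = 0.848). S100b, a calcium-binding protein of glia, fell, with 19.5, 33.6 and 32.7 in the replacement arrays against 103, 74.5 and 72.7 in the control arrays on 1434342_at (-1.65, adjusted p = 0.0373), and its other probe set was under 16 in every replacement array. Sox10, a glial transcription factor, had -0.35 (adjusted p = 0.586). Fibroblast markers did not pass, and control 1 stood apart from the other control arrays there: their sum was 328.5 to 429 in the replacement arrays and 162 to 1087 in the control arrays, with Col3a1 at 504 in control 1 and at 44.7 and 49.5 in control 2 and control 3. No marker of B and plasma cells, smooth muscle or enteroendocrine cells passed. The B and plasma cell sum was 82.4 to 101 in the replacement arrays and 76.2 to 131.5 in the control arrays. For smooth muscle it was 145 to 253 in the replacement arrays and 169 to 321 in the control arrays, and for enteroendocrine cells 629 to 734 in the replacement arrays and 654 to 770.0 in the control arrays.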
